A study of Homo sapiens with 10 samples.

Results

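The genes described here are the cadherins, the protocadherins and the alpha and delta catenins of human H1 embryonic stem cells during differentiation to hepatocyte-like cells. They were taken by name from the expression table. Every gene was taken whose symbol begins with CDH and a number, with PCDH, or with CTNNA or CTNND and a number. This rule was chosen with earlier results of these data known. Of the 12125 genes of the table, 40 matched. They were 4 type I classical cadherins, 7 type II classical cadherins, 1 other cadherin (CDH13), 10 non-clustered protocadherins, 14 clustered protocadherins and 4 catenins. GENCODE 29 names 94 protein-coding genes of these classes, and the genes that are not among the 40 were not analysed here. No gene of the table had a highest value under 26, so genes that stayed lower on every day are absent from it. On chromosome 5 lay 21 of the 40, and on chromosome 16 another 6.

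The course followed H1 cells, an established human embryonic stem cell line, in a serum-free culture with 1 RNA-seq library at each of 10 times. Day 0 cells were undifferentiated cells kept on Matrigel in mTeSR1 medium. Cells of days 1, 2 and 3 had received 100 ng/ml Activin A, and the labels presume early definitive endoderm and then definitive endoderm. Cells of days 5 and 7 had received 20 ng/ml BMP2 with 30 ng/ml FGF4, and cells of days 9 and 11 HGF and KGF at 20 ng/ml each. Day 21 cells had received 20 ng/ml Oncostatin M (OSM) and are presumed hepatocyte-like. Day 13 carries the label OSM, although the day counts of the protocol place it at the end of the HGF and KGF period, so its medium is not settled. All days come from 1 line and each day from 1 library, so there is no replicate and no test of any difference between days.

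The values are GC-normalized whole numbers that had been brought to nearly the same distribution in every library, with sums of 2330948 to 2362740 and medians of 81 to 82, so the depth of a single library could not be read from them. The methods of the study give an average depth over its libraries and none for a single one. High values fall on levels that recur in every library, so an exact repeat is no sign of an equal amount of RNA. CDH2, for example, was listed at exactly 3431 on 3 days, PCDH10 at 6502 on 2 days, and each of these levels was held by 1 gene in every library. The marker genes of the labelled stages moved across the days: 5 pluripotency markers summed to 11089 on day 0 and to 94 on day 21, 5 definitive endoderm markers to 20597 on day 3, and 6 hepatic markers to 39 on day 0 and 64966 on day 21. In bulk samples such as these, fewer cells of a type and less RNA per cell cannot be told apart.

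Classical cadherins are calcium-dependent adhesion proteins that bind like molecules on neighbouring cells and hold the actin cytoskeleton through catenins. Type I members, such as the epithelial cadherin CDH1 and the neural cadherin CDH2, form strong junctions, and type II members are typical of mesenchyme, endothelium, kidney and neurons. Protocadherins have similar extracellular repeats but do not bind the classical catenins, and they are best known for sorting neurons. A loss of one cadherin with gain of another is called cadherin switching and accompanies transitions between epithelial and mesenchymal states.

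A change is given as the later minus the earlier log2(value + 1), on which genes with low values show less than their true fold. A gene was counted as higher or lower when this difference was at least 2 in size, a 4-fold change on that scale, and the larger of both values was at least 50; genes below 50 on both days were not tested in that step. The libraries of days 9 and 11, made in the same medium, gave a measure of how far values differ without a change of medium. Between them the standard deviation of the log2 difference over all genes was 1.22 for genes with mean values under 10, 0.99 from 10 to 20, 0.49 from 20 to 50 and 0.28 from 200 to 500. Between these libraries 0 of 24 members tested were counted in either direction, against 0.107% of all genes higher and 0.107% lower. Without the filter, 9 of the 40 members (22.5%) differed by more than 1 on the log2 scale between these libraries, against 4.01% of all genes, and the standard deviation of the difference was 1.21 over the members and 0.51 over all genes. By their mean over both days, 2 members lay under 10 and 8 from 10 to 20, the bands with the widest spread. The largest difference was that of PCDH11X at 4.39, which was listed at 0 and then at 20.

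Over the whole course, 27 of the 40 members reached a value of 50 on at least 1 day and varied by at least 2 on the log2 scale (67.5%), against 35.7% of all genes. The median range of log2(value + 1) over the 10 days was 3.18 for the 40 members and 1.70 for all genes. The members also differed more than all genes between days 9 and 11, as given above, and the part of low values in their wider range was not tested. Every gene of the table reached 26 on some day, so a gene low on most days is present only through its higher days. The part of this in the ranges and peak days was not tested. At day 21, 11 of 40 members (27.5%) had their highest value, against 18.6% of all genes. At day 5 it was 7 of 40 (17.5%), against 8.9%. Most of the 11 were alpha and gamma clustered protocadherins, among which the assignment of reads is uncertain. Outside the clusters, only CDH1, CDH10, PCDH12 and PCDH18 peaked at day 21. The heat map of all members shows these patterns by class.

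**Figure D1:**
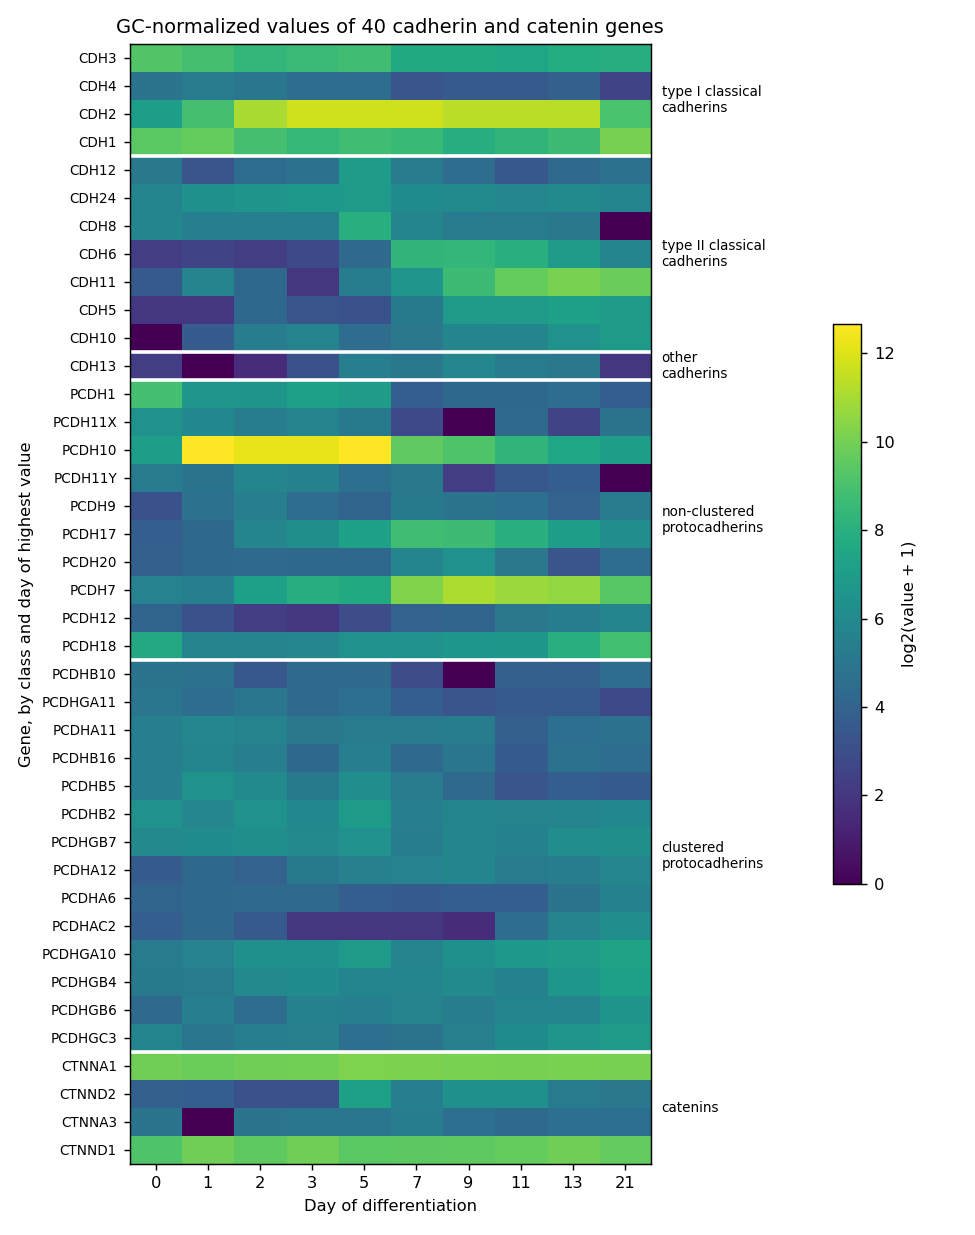
Heat map of log2(value + 1) of the 40 members (rows, ordered within class by the day of their highest value) on the 10 days (columns, 1 library each); yellow is high and dark blue is 0. CDH2, PCDH10 and PCDH7 hold the brightest cells, on days 2 to 13, 1 to 5 and 7 to 13, while CTNNA1 and CTNND1 are bright throughout.

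The non-clustered protocadherins, single genes outside the protocadherin clusters, gave way to one another over the course. Per kilobase of transcript, PCDH1 had the highest value among them on day 0, PCDH10 on days 1 to 5 and PCDH7 from day 7 on. From day 3, in Activin A, to day 7, in BMP2 and FGF4, PCDH7 and PCDH17 were counted as higher. PCDH1, PCDH10 and PCDH11X were counted as lower. Day 5 was already in BMP2 and FGF4. On days 3, 5 and 7 PCDH10 was at 4866, 6502 and 758 and PCDH1 at 150, 125 and 13. PCDH11X was at 50, 34 and 6, PCDH7 at 234, 203 and 1217 and PCDH17 at 78, 152 and 432. No other class had members counted in opposite directions in any of the 4 successive steps.

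PCDH10, a delta2 protocadherin that links to actin regulators, was listed at 134 before differentiation and at 6502, 4866, 4866 and 6502 on days 1, 2, 3 and 5. It was then listed at 758, 584, 308, 171 and 134 on days 7, 9, 11, 13 and 21. It was 48.5-fold higher at day 1 than at day 0, and was again at its starting value at the end. The 4 libraries of days 1 to 5 stood far above the other 6, of which day 7 was the highest. It was counted in 3 steps, with log2 changes of 5.17 from day 0 to day 3, -2.68 from day 3 to day 7 and -2.14 from day 7 to day 13.

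PCDH7, a delta1 protocadherin, had values of 48, 44, 142, 234 and 203 on days 0, 1, 2, 3 and 5, and of 1217, 2170, 1739, 1559 and 662 on days 7, 9, 11, 13 and 21. It was 4.88-fold higher at day 3 than at day 0 and 5.2-fold higher at day 7 than at day 3. All 5 libraries from day 7 on lay above the 5 earlier ones.

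PCDH17, another delta2 protocadherin, had values of 13, 18, 54, 78 and 152 on days 0, 1, 2, 3 and 5. On days 7, 9, 11, 13 and 21 it was at 432, 412, 264, 130 and 72. Each value from day 0 to day 7 was higher than the one before it, and each later one was lower. The log2 change was 2.50 from day 0 to day 3 and 2.45 from day 3 to day 7.

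PCDH1, a protocadherin known from airway epithelium, was listed at 478 at day 0 and at 96, 92, 150 and 125 on days 1, 2, 3 and 5. It was at 13, 18, 18, 22 and 13 on days 7, 9, 11, 13 and 21. The values thus fell into 3 separate ranges, day 0, days 1 to 5, and day 7 onward. PCDH1 was 11.5-fold lower at day 7 than at day 3 and 36.8-fold lower at day 21 than at day 0, a log2 change of -5.10.

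PCDH18, also a delta2 protocadherin, was lowest on days 1 and 2 and highest at the end. Its values were 202, 49, 49, 57 and 84 on days 0, 1, 2, 3 and 5 and 90, 99, 104, 256 and 451 on days 7, 9, 11, 13 and 21. The drop from day 0 to day 1 was -2.02 on the log2 scale, but by day 3 the difference was -1.81, which was not counted. PCDH18 lay 4.33 Mb from PCDH10 on chromosome 4 in the table's coordinates.

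The other non-clustered protocadherins had low values. PCDH20 was listed at 14, 18, 20, 18 and 18 on days 0 to 5, at 54, 84 and 32 on days 7, 9 and 11, and at 9 and 22 on days 13 and 21, and was counted as lower from day 7 to day 13. PCDH12, which endothelial cells express, was at 16, 8, 4, 3, 7, 15, 16, 31, 39 and 54 over the 10 days, with its highest value at day 21. PCDH12 lay 65.2 kb from PCDH1 in the table's coordinates. The 2 genes, paired here after their values had been seen, were highest at opposite ends of the course. PCDH11X was at 86, 59, 39, 50 and 34 up to day 5 and at 6, 0, 20, 5 and 28 from day 7. Its copy PCDH11Y was at 38, 28, 54, 46, 24, 33, 4, 10, 13 and 0, and since both genes are near-identical the assignment of reads between them is uncertain. PCDH9 ranged from 8 to 42.

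**Figure D2:**
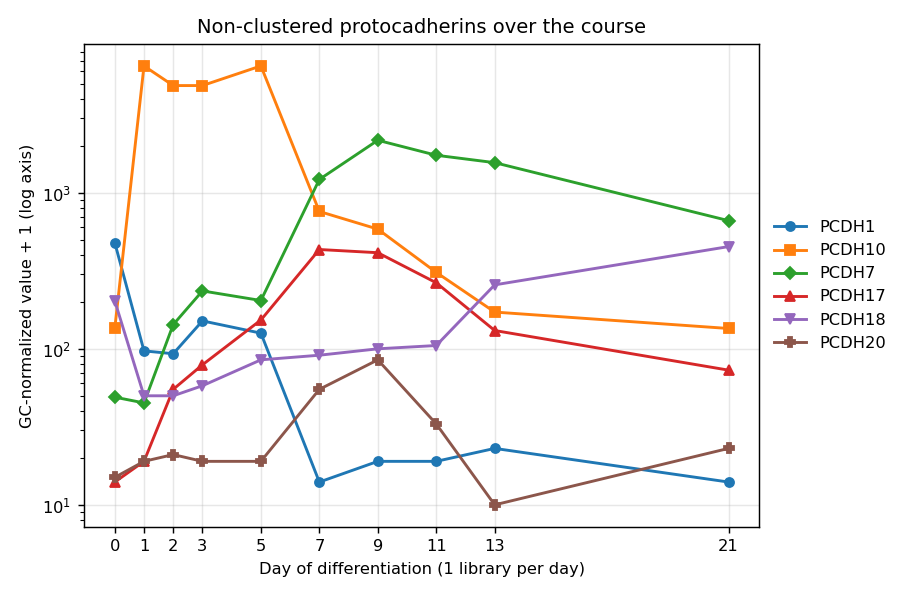
GC-normalized value + 1 on a log axis of 6 non-clustered protocadherins against the day of differentiation, with 1 point per library. PCDH10 stands at 4866 to 6502 on days 1 to 5, PCDH7 at 1217 to 2170 on days 7 to 13, and PCDH1 drops from 478 at day 0 to 13 at day 7.

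The stretches just before the start sites of 3 of the 5 non-clustered protocadherins counted between day 3 and day 7, chosen after their values had been seen, are shown so that their base make-up can be compared. They are the 120 bases before a RefSeq start site in build GRCh38.p14, in the direction of the gene: PCDH1 at chr5:141869628-141869747 on the minus strand, PCDH7 at chr4:30720249-30720368 and PCDH17 at chr13:57631624-57631743 on the plus strand. Capitals mark CAGGTG, the E-box bound by the SNAI and ZEB repressors of CDH1.
PCDH1: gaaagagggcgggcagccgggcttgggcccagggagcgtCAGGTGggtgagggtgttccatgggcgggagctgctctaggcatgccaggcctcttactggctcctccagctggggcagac
PCDH7: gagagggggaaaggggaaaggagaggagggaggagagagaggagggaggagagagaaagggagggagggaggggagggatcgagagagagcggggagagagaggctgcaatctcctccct
PCDH17: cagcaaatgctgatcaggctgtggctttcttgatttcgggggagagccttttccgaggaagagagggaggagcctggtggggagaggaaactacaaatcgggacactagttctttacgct
PCDH1 holds the letters once, 81 bases before the start site, and the other 2 stretches do not hold them on either strand. Of the 40 members, 30 had a window in the RefSeq table, 45 windows of 300 bases in all (250 before and 50 after each start site). CAGGTG occurred on either strand in 5 of the 45 (11.1%), belonging to PCDH1, CDH4, PCDHGA11 and PCDHGB6, against 20.6% of all 35116 windows. The 45 windows of these 30 members held a median of 10 CG pairs, against 14 in all windows. The table holds no window for CDH1, CDH3, CDH5, CDH6, CDH11, CDH13, CDH24, CTNND1, PCDH10 and PCDH20. PCDH11X, counted as lower from day 3 to day 7 like PCDH1, is not shown although it had a window, and it had no CAGGTG there. A match of letters is a description and not a binding site.

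Among the type II classical cadherins, CDH5, CDH6, CDH10 and CDH11 were between 0 and 11 on day 0, were counted as higher on day 21, and peaked on different days. CDH6, the kidney cadherin, had values of 4, 5, 4, 6 and 20 on days 0, 1, 2, 3 and 5, and of 308, 338, 264, 125 and 54 on days 7, 9, 11, 13 and 21. It was 51.3-fold higher at day 7 than at day 3, a log2 change of 5.46, the largest of the 40 members in that step. All libraries from day 7 on were above all earlier ones.

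CDH11, a cadherin of mesenchymal cells and osteoblasts, was listed at 11, 50, 18, 3, 40 and 98 on days 0, 1, 2, 3, 5 and 7. It went on to 404, 804, 1107 and 872 on days 9, 11, 13 and 21. The later libraries did not overlap with those up to day 7. It was counted as higher both from day 3 to day 7 (4.63 on the log2 scale) and from day 7 to day 13 (3.48), and at day 21 it was 79.3-fold higher than at day 0. Its value of 50 on day 1, above those of days 0, 2 and 3, rests on 1 library. With a pseudocount of 5 in place of 1 the difference between days 3 and 7 was 3.69 for CDH11 and 4.83 for CDH6 on the log2 scale, since both were at 3 to 6 on day 3.

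A list of 7 stromal markers, all in the table, had a higher sum on the same days as CDH11. They summed to between 225 and 666 up to day 5 and to 4294, 12155, 14429, 19906 and 23049 on days 7, 9, 11, 13 and 21. The single markers did not all follow that sum. LUM was at 0 on days 0 to 3 and COL1A1 at 294 on day 0. DCN was at 20 on day 0, 9 on day 7 and 80 on day 9, and PDGFRB at 42, 42 and 128. The part of stromal cells in the values of CDH11 was not tested.

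CDH5, the cadherin of endothelial junctions, was at 3, 3, 18, 9, 8 and 34 on days 0, 1, 2, 3, 5 and 7. It was at 114, 122, 152 and 120 on days 9, 11, 13 and 21, all above the earlier libraries. From day 7 to day 13 it was 4.47-fold higher. The 6 endothelial markers in the table, of 8 listed, summed to between 371 and 676 up to day 7 and to 898, 1214, 2062 and 1407 on days 9, 11, 13 and 21. PECAM1 and CLDN5 were not among the genes of the table, and the 6 others did not share one course. KDR was at 517 on day 0, most of that day's sum, at 823 on day 13 and at 302 on day 21, while CD34 was highest on day 7 at 131 and was at 72 on day 21. TEK was at 38 on day 7 and 889 on day 13, TIE1 at 16 and 60 and EGFL7 at 70 and 158. ESAM was listed at 0 or 1 up to day 5 and at 18 to 64 afterwards. The part of such cells in the values of CDH5 was not tested.

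CDH10 was listed at 0 at day 0, so no fold is given. It was at 12, 40, 49, 22, 32, 56, 56, 88 and 110 on the following 9 days, with the highest value at day 21. CDH8 and CDH12, both best known from neurons, peaked at day 5. CDH8 was at 56, 44, 44 and 43 on days 0 to 3, at 244 on day 5 and at 53, 38, 36 and 33 on days 7 to 13, and was listed at 0 on day 21. CDH12 was at 33, 9, 21 and 26 on days 0 to 3, at 122 on day 5 and at 38, 22, 10, 19 and 26 afterwards. The next highest library after day 5 was at 56 for CDH8 and at 38 for CDH12.

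Together with CTNND2 these made 3 of 19 members (15.8%) whose day 5 value exceeded both day 3 and day 7 by at least 1 on the log2 scale, against 1.74% of all genes. That rule was chosen after the values had been seen, and it rests on 1 library. CDH24 kept between 51 and 112.

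**Figure D3:**
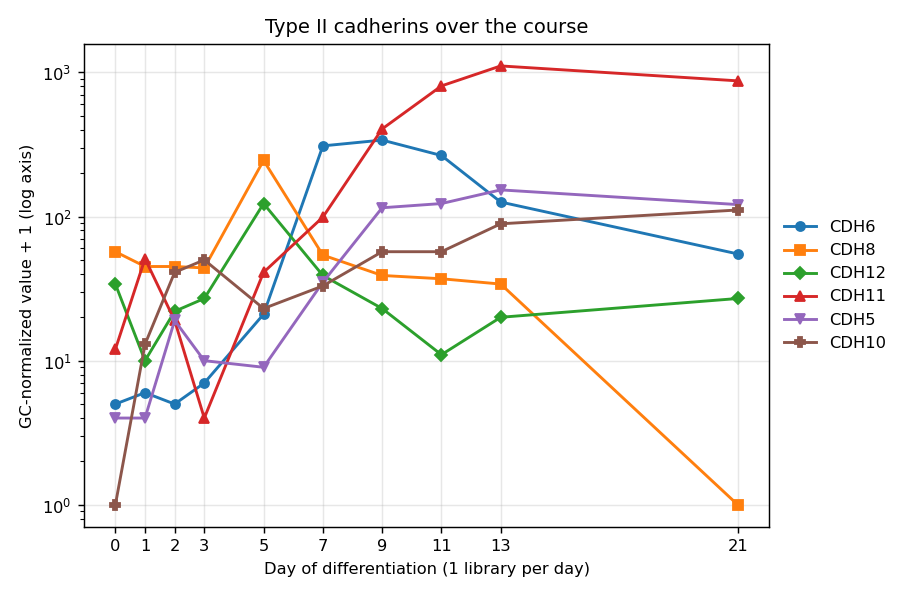
GC-normalized value + 1 on a log axis of 6 type II cadherins against the day of differentiation, 1 library per day; a value of 0 lies at 1. CDH6 is highest at day 9, CDH11 and CDH5 at day 13, and CDH8 and CDH12 at day 5 with 244 and 122.

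The 4 type I cadherins had fewer counted changes, and CDH1 and CDH2 were counted together in no step. Over the 10 days CDH1 was at 697, 808, 484, 342, 444, 384, 237, 316, 407 and 1089. CDH2 was at 134, 489, 2168, 3431, 3431, 3431, 2638, 2638, 2638 and 527, so its libraries of days 2 to 13 stood above the other 3. CDH2 was counted as higher from day 0 to day 3 (4.67 on the log2 scale) and as lower from day 13 to day 21 (-2.32). CDH1 moved the opposite way in both steps, by -1.03 from day 0 to day 3 and by 1.42 from day 13 to day 21. The latter was its largest change, so CDH1 stayed below the cutoff and was not counted in any step. CDH3, the placental cadherin, went from a highest value of 606 on day 0 to a lowest of 180 on day 11. In the table's coordinates the interval listed for CDH3 ended 91.9 kb before that of CDH1. CDH4, the retinal cadherin, ranged from 5 to 37. CDH13, which is anchored to the membrane by a lipid and has no cytoplasmic tail, was at 4, 0, 2 and 8 on days 0 to 3, at 42, 33, 57, 38 and 32 on days 5 to 13 and at 3 at day 21.

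Divided by the length of the longest protein-coding GENCODE 29 transcript, the order of cadherins and protocadherins by value per kilobase changed with the days. The catenins were left out of this order, as was PCDHB16, for which there was no such length. This division takes the values to grow with transcript length, as read counts do, which the normalized scale does not guarantee. At day 0 it began with CDH1 (143 per kb), CDH3 (123) and PCDH1 (99.7). At day 1 PCDH10 led with 766 per kb, and at day 3 CDH2 led with 792 before PCDH10 with 573, an order that is the reverse of that of the undivided values, 3431 and 4866. At day 9 CDH2 had 609 per kb and PCDH7 321, and at day 21 CDH1 had 223, CDH11 127, CDH2 122 and PCDH7 97.8 per kb. CDH11 and CDH2 are thus close at day 21, and 1 library a day gives no spread to set their order.

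The clustered protocadherins, arranged in the alpha, beta and gamma clusters on chromosome 5 and known for giving neurons distinct surface identities, stayed at low values. None of the 14 exceeded 156. The summed value of the 6 gamma members was 230, 322, 232, 459 and 606 on days 0, 3, 7, 13 and 21. From day 0 to day 21 the 4 alpha members went from a sum of 85 to 203 and the 4 beta members from 196 to 116. From day 0 to day 21, 5 of 6 gamma members, 3 of 4 alpha members and 0 of 4 beta members were higher in value. The median change of all genes between these days was -0.12 on the log2 scale. The alpha members share exons, as do the gamma members, so they are not separate observations.

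Of the 14 cluster members, PCDHA12, PCDHAC2, PCDHB2, PCDHGA10, PCDHGB4, PCDHGB6, PCDHGB7 and PCDHGC3 reached 50 on day 0 or day 21. Only these were tested, and 5 of them were counted as higher at day 21 than at day 0. Among all genes tested in that comparison, 11.9% were counted as higher. PCDHGA10 was at 35, 48, 80, 82, 111, 50, 82, 108, 126 and 156 over the 10 days. PCDHGB4 was at 34, 36, 62, 68, 52, 51, 65, 46, 100 and 153. PCDHGB6 was at 19, 43, 22, 46, 44, 50, 40, 52, 52 and 94. All 3 gamma members had their highest value at day 21. PCDHA12 was at 12, 18, 15, 34, 45, 48, 55, 38, 40 and 58. PCDHAC2, a C-type member of the alpha cluster, was at 13, 18, 11, 3, 3, 3, 2, 22, 49 and 72, with its lowest values on days 3 to 9. Members of the alpha cluster share 3' constant exons, as do members of the gamma cluster, so the assignment of reads among them is uncertain.

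The other cluster members were not counted between the ends of the course. PCDHGC3, the C-type gamma member with broad expression, was at 51, 30, 43, 45, 24, 28, 45, 70, 98 and 119. PCDHB5 was at 42, 90, 66, 34, 72, 38, 20, 9, 13 and 12, and PCDHB16 at 42, 52, 42, 18, 42, 20, 30, 12, 26 and 23. Both beta members had their highest value at day 1. The remaining 6 cluster members, PCDHA6, PCDHA11, PCDHB2, PCDHB10, PCDHGA11 and PCDHGB7, had highest values of 28 to 119.

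The alpha and delta catenins, which tie cadherins to actin and keep them at the membrane, had their narrowest ranges in the broadly expressed CTNNA1 and CTNND1. CTNNA1, the main alpha catenin, was at 956, 902, 958, 1000, 1185, 1156, 1108, 1087, 1108 and 1088, a range of 0.39 on the log2 scale. CTNND1, also called p120 catenin, was at 582, 980, 724, 980, 695, 704, 733, 804, 981 and 790. CTNND2, the neural delta catenin, was at 14, 13, 8 and 8 up to day 3, at 148 on day 5 and at 44, 80, 80, 38 and 32 afterwards. CTNNA3 was at 28 on day 0, was listed at 0 on day 1, and ranged from 20 to 41 afterwards. While CDH2, PCDH10 and PCDH7 ranged over 4.67, 5.59 and 5.59 on the log2 scale, CTNNA1 and CTNND1 ranged over 0.39 and 0.75.

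Counted by step, the members changed as follows. From day 0 to day 3, 4 of 18 members tested (22.2%) were higher, namely CDH2, PCDH10, PCDH17 and PCDH7, against 3.94% of all genes tested, and 0 were lower, against 2.16%. From day 3 to day 7, 4 of 21 were higher (19%), namely CDH11, CDH6, PCDH17 and PCDH7, against 5.63%, and 3 were lower (14.3%), against 4.41%. From day 7 to day 13, CDH11 and CDH5 were higher and PCDH10 and PCDH20 lower, 2 of 22 in each direction (9.09%), against 3.08% higher and 2.46% lower.

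From day 13 to day 21, 0 of 23 members were higher, against 2.28% of all genes, and 1 was lower (4.35%), CDH2, against 1.62%. Between the ends of the course, day 0 and day 21, 11 of 26 members tested were higher (42.3%), against 11.9% of all genes, and 2 were lower (7.69%), CDH8 and PCDH1, against 11.5%. The 11 were CDH5, CDH6, CDH10, CDH11, PCDH7, PCDH17 and the 5 cluster members above. The count without the clustered protocadherins, a choice made after the values had been seen, was 6. The median change of all 40 from day 0 to day 21 was 0.53 on the log2 scale, against -0.12 for all genes. In that comparison the type II cadherins and the non-clustered protocadherins each had members on both sides.

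**Figure D4:**
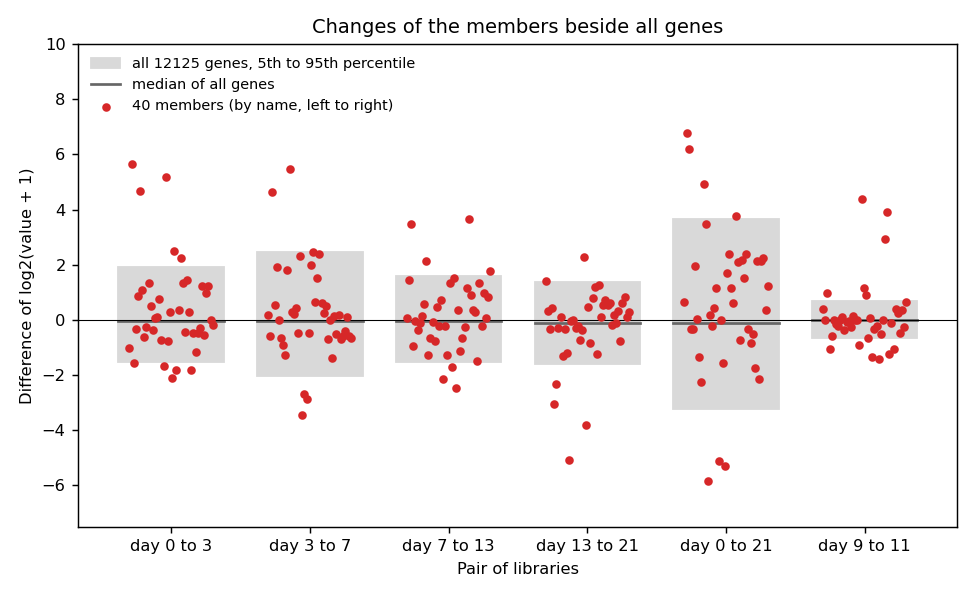
Differences of log2(value + 1) of the 40 members (red points, in order of name) for 6 pairs of libraries, with grey boxes for the 5th to 95th percentile of all 12125 genes and a line at their median. Members lie outside the box in every pair; at days 9 and 11, which share a medium, the box spans -0.66 to 0.68.

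Genes that work with cadherins were taken as a list of 41 names, of which 33 were in the table. They include beta and gamma catenin, plakophilins, nectins, desmosomal cadherins, the large FAT and CELSR cadherins and the proteases that cut cadherins. The list holds fewer than 41 genes, since AFDN, NECTIN1, NECTIN2 and NECTIN3 are second names of the listed MLLT4, PVRL1, PVRL2 and PVRL3. From day 0 to day 3, 0 of 30 tested were counted as higher, against 3.94% of all genes, and 1 as lower (3.33%, against 2.16%), the nectin PVRL1, from 410 to 92. From day 3 to day 7, 2 of 30 were higher (6.67%, against 5.63%) and 0 lower (against 4.41%), the higher ones being the desmosomal cadherin DSC2, from 308 to 1281, and FJX1, from 26 to 166. From day 7 to day 13, 2 of 30 were higher (6.67%, against 3.08%), CLSTN2, from 34 to 504, and the desmosomal cadherin DSC3, from 59 to 541, and 0 were lower (against 2.46%). From day 13 to day 21, 0 of 29 were counted in either direction, against 2.28% higher and 1.62% lower. The counts of these steps rest on 0 to 2 genes each.

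From day 0 to day 21, 6 of 31 tested were higher (19.4%, against 11.9%), namely CLSTN2, CLSTN3, DCHS1, DSC3, DSP and FAT4. The 4 lower ones (12.9%), CDHR1, CELSR1, CELSR2 and PVRL1, made a share near that of all genes, 11.5%. CTNNB1, beta catenin, was between 1064 and 2021 on every day. The desmosomal anchor DSP went from 376 to 2970 between these days, FAT4 from 64 to 372, and CELSR1, a planar polarity cadherin, from 108 to 26.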

How the data were processed

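Per the study's methods and the submitters' processing notes, the authors aligned reads with Bowtie2 2.2.0, estimated expression with RSEM 1.2.17 against an Ensembl release 76 transcriptome, and normalized for GC content with EDASeq. The deposited values are whole numbers on that normalized scale and were treated as a score, not as counts. For the table's coordinates the labels name mm10 and hg19 without a role. The identifiers are human, and 39 of 40 occur in GENCODE 29, so mm10 is not the build. 0 members have the same interval in GRCh38, and the coordinates were not checked against hg19. Distances between genes use the table's coordinates, and promoter windows come from RefSeq GRCh38.p14.

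Members were taken by name and groups from the labelled day. The members and lists were chosen with earlier results of these data known. With 1 library per day no test was possible; differences of log2(value + 1) were counted at 2 or more with a larger value of at least 50. Named in full were members that reached 50 on at least 1 day with a log2 range of at least 2, and the catenins; CDH1 and CDH2 were given beside other members. The counting was tested on simulated data with changed genes well above the filter. Alternatives were other pseudocounts (0.1 and 5), other minimum values (20, 200 and none), scaling by the median of ratios, a log2 difference of 1 and a neighbouring day. Python 3.11.15 with numpy 2.4.6 and pandas 2.3.3 was used.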

Additional observations from a re-analysis of the deposited data

How the results depend on the processing

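Of 29 counted changes of single members, 0 changed direction under pseudocounts of 0.1 or 5 or scaling by the median of ratios, but 11 of the 87 values moved by more than the standard deviation between days 9 and 11 of genes at the same level. With a pseudocount of 5, the step from day 3 to day 7 measured 3.69 for CDH11, 4.83 for CDH6 and -2.32 for PCDH11X, and that from day 0 to day 21 was 4.52 for CDH10, 5.78 for CDH11, 3.97 for CDH5, 2.71 for CDH6, -3.61 for CDH8 and -4.75 for PCDH1. With 0.1 it was 10.10 for CDH10 and -9.13 for CDH8, both listed at 0 on one of these days. Of 88 counts of members under alternatives, 63 stayed within 1.5 times the reported count. The others were as follows. For day 3 against day 0, taking day 2 instead gave 2 higher and 2 lower; no filter gave 1 lower and a log2 difference of 1 gave 3 lower. For day 7 against day 3, a minimum of 200 gave 1 lower. For day 13 against day 7, a minimum of 200 gave 1 higher and 1 lower, a log2 difference of 1 gave 6 higher and 4 lower, and day 11 instead gave 1 higher and 0 lower. For day 21 against day 13, a minimum of 20 gave 1 higher and 3 lower, no filter 1 higher and 4 lower, a log2 difference of 1 gave 1 higher and 3 lower, and day 11 instead gave 1 higher and 2 lower. For day 21 against day 0, a minimum of 200 gave 2 higher and 1 lower, a minimum of 20 and no filter each gave 5 lower, a log2 difference of 1 gave 4 lower, and leaving out the clustered protocadherins, chosen after seeing the data, gave 6 higher. The shares of all genes under these alternatives are not given here, so these counts cannot be set against a background. The filters change how many members are tested. The cause of the other shifts was not tested.

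Scaling by the median of ratios moved the median change of all genes from day 0 to day 21 from -0.12 to 0.06 on the log2 scale and that of the 40 members from 0.53 to 0.71. Values near or under 20 vary most between libraries, 7 members were listed at 0 on 1 day, and the depth of each library is unknown. No paired analysis was possible because each day has 1 library.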

Other observations

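For the 5 members counted in at least 2 of the 4 successive steps, the genes nearest in pattern over the 10 days were found among 10746 genes by Pearson's r of log2(value + 1); the points share the libraries, and many genes move with the same days. For CDH11 these were GPR124 (0.984), SNRK (0.979) and TMEM140 (0.975). For PCDH17 they were PPP1R15A (0.985), KRT19 (0.983) and AMHR2 (0.980), and for PCDH7 BRP44 (0.981), SEMA4G (0.980) and CUBN (0.980). For PCDH10 they were MAPK1IP1L (0.962), CHST15 (0.955) and SP5 (0.950), and for CDH2 ARID4B (0.979), MCC (0.960) and UBQLN4 (0.954). GPR124, the nearest to CDH11, was at 4, 84, 650 and 582 on days 0, 7, 13 and 21. Pearson's r takes no account of the size of a change. SNRK ranged only from 31 to 80 and TMEM140 from 18 to 86, against 3 to 1107 for CDH11. ARID4B, the nearest to CDH2, ranged from 64 to 111, against 134 to 3431 for CDH2.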
